A study of Mus musculus with 12 samples.

Results

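Hepatic expression of 10 genes that release glucose from the liver or that build and break down its glycogen was examined in mice after vertical sleeve gastrectomy (VSG) or food restriction. The genes were chosen by symbol, as rows of a table of 46078 genes: G6pc, Slc37a4, Pck1 and Fbp1 of glucose output, Gys2, Pygl and Gbe1 among the enzymes of glycogen, and Ppp1r3b, Ppp1r3c and Ppp1r3g among the subunits that bring protein phosphatase 1 to glycogen. All 10 were found in the table and all 10 passed the filter on low counts that left 13054 genes for testing. They were chosen by name and role, with earlier results of these data known.

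The liver is the main source of glucose between meals. Gluconeogenesis makes glucose phosphate from lactate and amino acids through Pck1 and Fbp1, and glycogen breakdown supplies it through glycogen phosphorylase (Pygl). Both routes end in the endoplasmic reticulum, where Slc37a4 carries glucose phosphate across the membrane and G6pc removes the phosphate. Glycogen is built by glycogen synthase (Gys2) and the branching enzyme (Gbe1), and the Ppp1r3 subunits hold the phosphatase that activates the synthase and inactivates phosphorylase. Glucagon and fasting are known to favour output and breakdown, and insulin and feeding to favour storage.

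RNA of whole liver was sequenced from 12 male C57BL/6 mice (C57BL/6J in the study's methods) aged 21 weeks with diet-induced obesity, 4 mice per group, each library from 1 mouse. VSG mice had most of the stomach removed; Sham-WM mice had a sham operation and were then given less food so that their weight matched that of the VSG mice; Sham-Ad lib mice had the sham operation and ate without restriction. All mice had received the high fat diet and had abdominal surgery, and tissue was taken on day 16 after the operation, following 5 hours without food. The comparison of VSG with Sham-WM addresses what differs at equal weight, and each treatment was also compared with Sham-Ad lib, so that those 2 comparisons share their control libraries.

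The 12 libraries held 15122520 to 19384076 counts on genes. Libraries were assigned by the animal number shared by the sample title and the library name, and are named by it (3F, for example); a second label field contradicts this and pairs the titles with other animals' libraries. Every group value and comparison given here rests on the animal numbers: grouped by that second field, edgeR called 0 of the 10 genes, and 0 of all genes, in each of the 3 comparisons, and log2 fold changes of several of the 10 reversed. The library names end in a running number that forms 1 block for each group; what it counts was not given in the sources used here, and anything that followed it cannot be told apart from treatment. Hepatocyte markers (7 of 8 found) summed to 107300 to 129400 CPM (a gene's count relative to the scaled total of its library) in Sham-Ad lib libraries, 126300 to 154400 in Sham-WM and 83590 to 127900 in VSG, and 2 of the 7 were lower in VSG than in Sham-WM. Muscle markers (6 genes, 1 tested and not called) summed to between 2.84 and 6.28 CPM, with Acta1, Ckm and Tnnt3 at or under 3 counts throughout. Adipocyte markers (5 genes) summed to 27.1 to 36.8 CPM in Sham-Ad lib, 14.0 to 24.7 in Sham-WM and 29.0 to 36.5 in VSG; Adipoq, Plin1 and Lep were at or under 3 counts throughout, and of the 2 tested genes 1 was lower in Sham-WM than in Sham-Ad lib and 1 higher in VSG than in Sham-WM. Summed neutrophil markers (5 genes) lay between 1.03 and 14.5 CPM in Sham-Ad lib, 2.51 and 3.11 in Sham-WM and 21.3 and 620.2 in VSG, with 3 of 4 tested genes higher in VSG than in Sham-Ad lib and all 4 higher than in Sham-WM. Kupffer cell markers (6 genes) summed to 113.5 to 375.7, 104.2 to 183.3 and 389 to 1118 CPM in the same order, with 2 and 6 genes higher in VSG. Library 18F was the VSG library with the lowest sums of both lists and the highest share of albumin (Alb), 9.15% of counts against 4.89 to 5.71% in the other VSG libraries; it was 9.46 to 12.2% in Sham-WM and 7.82 to 9.45% in Sham-Ad lib. The part of these cells in the results was not tested, and in whole liver fewer cells of a type and less RNA per cell cannot be told apart.

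Promoter sequence was taken from RefSeq (GRCm38.p6), which held a start site for 8 of the 10 genes; Gys2 and Ppp1r3b were not among them. The 250 bases before the start are shown for G6pc and Pck1, which carry classical sites for cyclic AMP and had different expression patterns here. They are also shown for Ppp1r3c, a targeting subunit that rose in Sham-WM. Motif positions count from the RefSeq start site. The gene bounds given below are from another annotation, GENCODE M21, and place the start inside each of the 3 stretches. The stretch of G6pc lies at chr11:101367466-101367715 on the plus strand, that of Pck1 at chr2:173152823-173153072 on the plus strand and that of Ppp1r3c at chr19:36736605-36736854 on the minus strand. Each is written 5′ to 3′ along the gene, with capitals marking the motifs that were found.
G6pc: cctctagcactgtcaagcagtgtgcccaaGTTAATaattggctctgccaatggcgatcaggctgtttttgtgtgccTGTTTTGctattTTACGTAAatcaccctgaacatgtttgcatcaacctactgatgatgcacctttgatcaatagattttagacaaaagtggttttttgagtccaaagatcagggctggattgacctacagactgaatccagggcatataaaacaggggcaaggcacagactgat
Pck1: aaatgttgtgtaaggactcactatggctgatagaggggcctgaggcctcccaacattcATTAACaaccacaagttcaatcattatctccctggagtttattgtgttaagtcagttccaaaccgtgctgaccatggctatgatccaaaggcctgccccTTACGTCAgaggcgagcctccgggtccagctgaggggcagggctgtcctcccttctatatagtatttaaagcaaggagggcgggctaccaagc
Ppp1r3c: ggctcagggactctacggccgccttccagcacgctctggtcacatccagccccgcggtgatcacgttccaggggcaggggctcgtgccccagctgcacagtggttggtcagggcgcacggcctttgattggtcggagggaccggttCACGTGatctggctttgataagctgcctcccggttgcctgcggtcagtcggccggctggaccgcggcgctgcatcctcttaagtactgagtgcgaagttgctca
Motifs were searched on both strands as exact letters, and were chosen with results of these data known. The cyclic AMP response element variant TTACGTNA was present at -162 in G6pc and at -93 in Pck1, and in 0.788% of 32851 RefSeq promoters of this length; in Pck1 it contains the shorter core TGACG (17.8% of promoters). The letters GTTAAT, part of the HNF1 motif, occurred in both promoters (6.43% of all), and TGTTTTG, the core of the insulin response sequence, at -174 in G6pc alone of the 3 (5.56% of all). Ppp1r3c held the E-box CACGTG at -104, found in 6.02% of promoters. TGACGTCA (1.55% of promoters), TGTTTAC of FOXO factors (3.17%) and AGAACA of the glucocorticoid receptor (16.1%) matched none of the 3. A match is a description of the letters and does not show binding.

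G6pc and the 3 glycogen targeting subunits had the 4 largest absolute log2 fold changes of the 10 genes in both comparisons with Sham-WM. Compared with Sham-Ad lib, Sham-WM livers had higher G6pc, Pygl, Ppp1r3b and Ppp1r3c and lower Ppp1r3g. VSG livers had lower G6pc, Pygl, Gbe1, Ppp1r3b and Ppp1r3c than Sham-WM livers at the same weight. In edgeR's quasi-likelihood test with Benjamini-Hochberg adjustment over all genes, 5 of 10 genes passed an adjusted p of 0.05 for Sham-WM against Sham-Ad lib (4 higher, 1 lower), where 6.99% of all tested genes passed, 3.53% higher and 3.45% lower. For VSG against Sham-WM 5 of 10 passed, all lower in VSG, where 26.9% of all genes passed and 11.9% were lower; the albumin share was also lower in all 4 VSG libraries than in every Sham-WM library, and the hepatocyte marker sum in all but 18F, and their part in these calls was not tested. For VSG against Sham-Ad lib 0 of 10 passed in edgeR, where 0.751% of all genes did; 5 of the 10, and 3149 of all genes, had an unadjusted p under 0.05, and DESeq2 called 2 of 10 against 9.21% of all genes. The median log2 fold change of the 10 genes was 0.16 for Sham-WM against Sham-Ad lib, -0.35 for VSG against Sham-Ad lib and -0.42 for VSG against Sham-WM, and over all tested genes it was 0.001, 0.028 and 0.028.

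**Figure D1:**
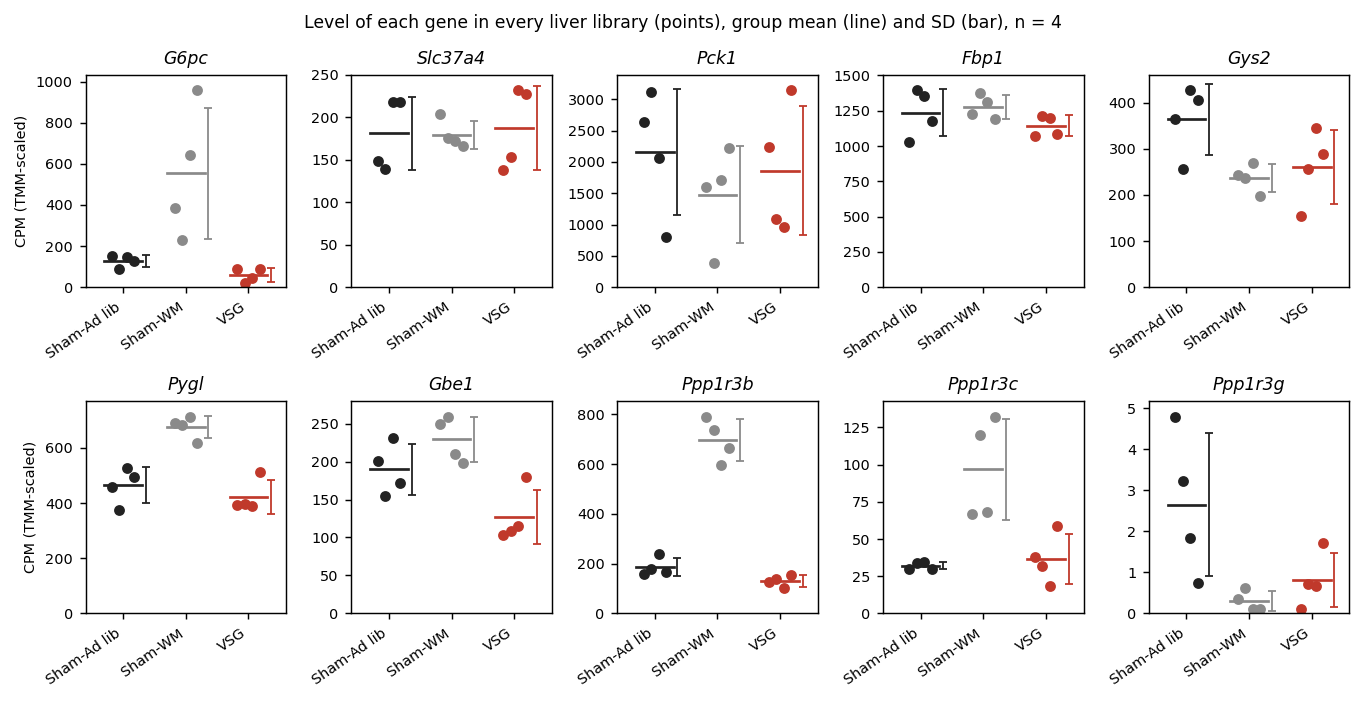
CPM of each of the 10 genes in every library (points), by group, with the group mean as a line and the SD as a bar (n = 4 mice each); each panel has its own linear axis from 0. Ppp1r3b lies between 595.2 and 791 CPM in Sham-WM and at or below 239.6 CPM in both other groups, while Fbp1 lies between 1027 and 1395 CPM in every library.

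G6pc encodes the catalytic subunit of glucose-6-phosphatase, the last step of both routes of glucose output (ENSMUSG00000078650, chromosome 11 from 101367561 to 101377903 of mm10). The Sham-Ad lib livers 3F, 4F, 6F and 10F had 149.8, 87.0, 144.3 and 125.7 CPM. It was 385, 227.3, 642.5 and 957.4 CPM in the Sham-WM livers 2F, 9F, 15F and 16F. In the VSG livers 1F, 8F, 11F and 18F it was 88.8, 20.1, 44.7 and 89.9 CPM. Every Sham-WM value lay above all values of the other groups, and VSG libraries 1F and 18F overlapped the lowest Sham-Ad lib library. G6pc rose 4.36-fold in Sham-WM (log2 fold change 2.13 with a standard error of 0.47, adjusted p = 0.017, edgeR). VSG had 0.11 times the Sham-WM level (-3.18 with a standard error of 0.49, adjusted p = 0.00126). For VSG against Sham-Ad lib the change was -1.06 with a standard error of 0.46 (adjusted p = 0.185). The first call was lost without library 10F (2.11, adjusted p = 0.0543) or 16F (1.73, adjusted p = 0.0599), and the call between VSG and Sham-WM was kept in all 12 fits that left out 1 library. The spread among the 4 Sham-WM mice was wide, with the highest value 4.21 times the lowest.

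Slc37a4, the glucose-6-phosphate translocase that feeds G6pc, had no such pattern (ENSMUSG00000032114, chromosome 9 from 44396852 to 44402968). It was measured at 148.9, 139.4, 218.4 and 217.8 CPM in Sham-Ad lib and at 203.7, 175.5, 172.1 and 166.6 CPM in Sham-WM. VSG livers had 137.4, 152.6, 231.6 and 227.3 CPM. The 3 groups overlapped throughout. The log2 fold change was -0.013 in Sham-WM against Sham-Ad lib (95% interval -0.43 to 0.41), 0.047 in VSG against Sham-Ad lib (-0.37 to 0.47) and 0.061 in VSG against Sham-WM (-0.36 to 0.48).

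Pck1, cytosolic phosphoenolpyruvate carboxykinase, catalyses the committed step of gluconeogenesis from lactate and amino acids (ENSMUSG00000027513, chromosome 2 from 173153048 to 173159273). Sham-Ad lib livers had 2640.0, 3126, 2070.0 and 799.1 CPM, and Sham-WM livers 1594, 382.9, 1712 and 2225 CPM. VSG livers had 2245, 1087, 965.7 and 3146 CPM. All groups overlapped, and in each group the highest mouse exceeded the lowest by 3.26 to 5.81 times. The log2 fold change of Sham-WM against Sham-Ad lib was -0.55 with a 95% interval from -1.67 to 0.58 (adjusted p = 0.603, edgeR). For VSG the interval was -1.33 to 0.91 against Sham-Ad lib and -0.79 to 1.45 against Sham-WM.

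Fbp1, fructose-1,6-bisphosphatase of liver, had the smallest standard errors of the log2 fold change among the 10 genes (ENSMUSG00000069805, chromosome 13 from 62864753 to 62888282). It had 1027, 1395, 1351 and 1176 CPM in Sham-Ad lib livers, 1225, 1376, 1312 and 1188 CPM in Sham-WM livers, and 1071, 1215, 1202 and 1087 CPM in VSG. The groups overlapped in all 3 comparisons. The 95% interval of the log2 fold change was -0.23 to 0.32 for Sham-WM against Sham-Ad lib, -0.39 to 0.17 for VSG against Sham-Ad lib and -0.43 to 0.12 for VSG against Sham-WM. Thus 1 of the 4 genes of glucose output, the phosphatase itself, passed the test in any comparison.

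Pygl encodes the liver form of glycogen phosphorylase, which releases glucose units from glycogen (ENSMUSG00000021069, chromosome 12 from 70190811 to 70231488). It had 458.9, 375.9, 528.8 and 493.4 CPM in Sham-Ad lib and 690.3, 683.7, 713.9 and 618.5 CPM in Sham-WM. VSG livers had 392.8, 395.1, 388.8 and 513.1 CPM, of which 18F was the high value. Sham-WM did not overlap either other group, while VSG and Sham-Ad lib overlapped. Pygl rose 1.46-fold in Sham-WM against Sham-Ad lib (log2 fold change 0.54 with a standard error of 0.14, adjusted p = 0.0291, edgeR), and was lower in VSG than in Sham-WM (log2 fold change -0.68 with a standard error of 0.14, adjusted p = 0.00405). Against Sham-Ad lib, the log2 fold change in VSG was -0.14 (95% interval -0.43 to 0.15). The rise in Sham-WM was near the threshold, since it was lost without 3F (adjusted p = 0.0739), 4F (0.0785), 10F (0.0645), 2F (0.0676), 9F (0.056), 15F (0.0895) or 16F (0.0552) and with no filter on low counts (0.065), with a log2 fold change of 0.46 to 0.61 in the 12 fits without 1 library.

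Gys2, the liver glycogen synthase, had its highest levels in Sham-Ad lib (ENSMUSG00000030244, chromosome 6 from 142422613 to 142473109). It had 365.7, 256.1, 427.1 and 406.7 CPM in Sham-Ad lib livers, 243.2, 236.8, 269.5 and 196.8 CPM in Sham-WM livers, and 153.9, 255.4, 345.3 and 289.9 CPM in VSG livers. Sham-Ad lib library 4F lay within the range of the Sham-WM libraries. The log2 fold change was -0.62 for Sham-WM against Sham-Ad lib (SE 0.22 of the log2 value, adjusted p = 0.114, edgeR), and -0.48 for VSG against Sham-Ad lib (SE 0.22 of the log2 value, adjusted p = 0.205). Neither passed in edgeR. Sham-WM against Sham-Ad lib passed with DESeq2 (adjusted p = 0.0473), with only these 2 groups in the fit (0.0366), with RUVs factors for unwanted variation (0.0164), with RUVr factors (0.0195) and without library 1F (0.0467). Of the 12 fits without 1 library, that without 1F was the only 1 that passed for Sham-WM against Sham-Ad lib. VSG against Sham-Ad lib passed with RUVr factors (-0.50, adjusted p = 0.0272) and in 0 of the 12 fits without 1 library. It did not pass in edgeR with RUVs factors (-0.13, adjusted p = 0.88) or with only the compared groups (adjusted p = 0.289).

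Gbe1, the branching enzyme, which lets glycogen grow as a compact particle, was lowest in VSG (ENSMUSG00000022707, chromosome 16 from 70313949 to 70569716). Levels were 201.1, 154.1, 230.8 and 172.2 CPM in Sham-Ad lib and 249.9, 259.2, 210.1 and 198.4 CPM in Sham-WM. In VSG they were 103.3, 108.5, 115.7 and 179.1 CPM, again with 18F highest. All 4 VSG values were below those of Sham-WM, and all but that of 18F were below those of Sham-Ad lib. VSG livers had 0.552 times the Gbe1 of Sham-WM (log2 fold change -0.86 with a standard error of 0.18, adjusted p = 0.00586, edgeR). Against Sham-Ad lib the log2 fold change was -0.58 (SE 0.18 of the log2 value, adjusted p = 0.0925, edgeR). It passed in 1 of the 12 fits without 1 library, that without 18F (-0.80, adjusted p = 0.0191). DESeq2 gave an adjusted p of 0.0288 and RUVr factors in edgeR 0.0135. It did not pass in edgeR with RUVs factors (-0.18, adjusted p = 0.80) or with only the compared groups (adjusted p = 0.179). Sham-WM and Sham-Ad lib overlapped, with a log2 fold change of 0.28 (adjusted p = 0.427).

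Ppp1r3b, also known as G(L), is the main glycogen targeting subunit of liver (ENSMUSG00000046794, chromosome 8 from 35375739 to 35388139). It had 159.3, 180.0, 239.6 and 167 CPM in Sham-Ad lib and 791, 738.9, 595.2 and 665.8 CPM in Sham-WM. VSG livers had 126.7, 137.2, 101.8 and 156.2 CPM. None of the 3 groups overlapped another: Sham-WM was highest and VSG lowest. Ppp1r3b rose 3.74-fold in Sham-WM against Sham-Ad lib (log2 fold change 1.90 with a standard error of 0.17, adjusted p = 4.92e-05, edgeR), and VSG had 0.187 times the Sham-WM level (log2 fold change -2.42 with a standard error of 0.17, adjusted p = 6.39e-06). Both calls were kept in all 12 fits without 1 library. VSG against Sham-Ad lib had a log2 fold change of -0.51 (SE 0.16 of the log2 value, adjusted p = 0.0925, edgeR). It passed with DESeq2 (adjusted p = 0.0292) and with RUVr factors in edgeR (0.0241). Of the 12 fits without 1 library it passed in 1, that without 18F (-0.61, adjusted p = 0.0467). It did not pass in edgeR with RUVs factors (-0.36, adjusted p = 0.62) or with only the compared groups (adjusted p = 0.176).

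Ppp1r3c, also called PTG, is a second subunit of this family, found in many tissues (ENSMUSG00000067279, chromosome 19 from 36731731 to 36736653). Its 4 Sham-Ad lib values were close together, at 30.0, 33.7, 34.2 and 29.7 CPM. Sham-WM livers had 66.7, 119.8, 68.4 and 132.3 CPM, and VSG livers 38.1, 31.6, 18.2 and 58.7 CPM. Sham-WM did not overlap either other group, and VSG spread to both sides of Sham-Ad lib. The gene, whose promoter with its E-box is printed above, rose 3.03-fold in Sham-WM (log2 fold change 1.60 with a standard error of 0.30, adjusted p = 0.00794, edgeR). VSG was lower than Sham-WM (log2 fold change -1.40 with a standard error of 0.30, adjusted p = 0.00601), and both calls were kept in all 12 fits without 1 library. The log2 fold change of VSG against Sham-Ad lib was 0.20 (95% interval -0.45 to 0.85).

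Ppp1r3g, a targeting subunit described in fasted liver, went the other way in Sham-WM and was the least abundant member (ENSMUSG00000050423, chromosome 13 from 35958839 to 35970388). Raw counts were 86, 60, 34 and 12 in Sham-Ad lib, 7, 12, 2 and 2 in Sham-WM, and 2, 14, 9 and 30 in VSG. These are few reads of libraries of at least 15122520 counts, and 3 of the 12 libraries were at or under 3 counts. As CPM, Sham-Ad lib lay between 0.753 and 4.80 and Sham-WM between 0.102 and 0.614, without overlap. Ppp1r3g fell in Sham-WM against Sham-Ad lib (log2 fold change -3.125 with a standard error of 0.73, adjusted p = 0.0212, edgeR), and the call was lost without library 3F (adjusted p = 0.0645), 2F (0.0531), 15F (0.0754) or 16F (0.075). In VSG the log2 fold change was -1.71 against Sham-Ad lib (adjusted p = 0.142) and 1.42 against Sham-WM (adjusted p = 0.188). The gene overlaps the antisense gene Gm30127 and Ppp1r3b overlaps Gm45469, and whether the counting used strand was not given in the sources used here.

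**Figure D2:**
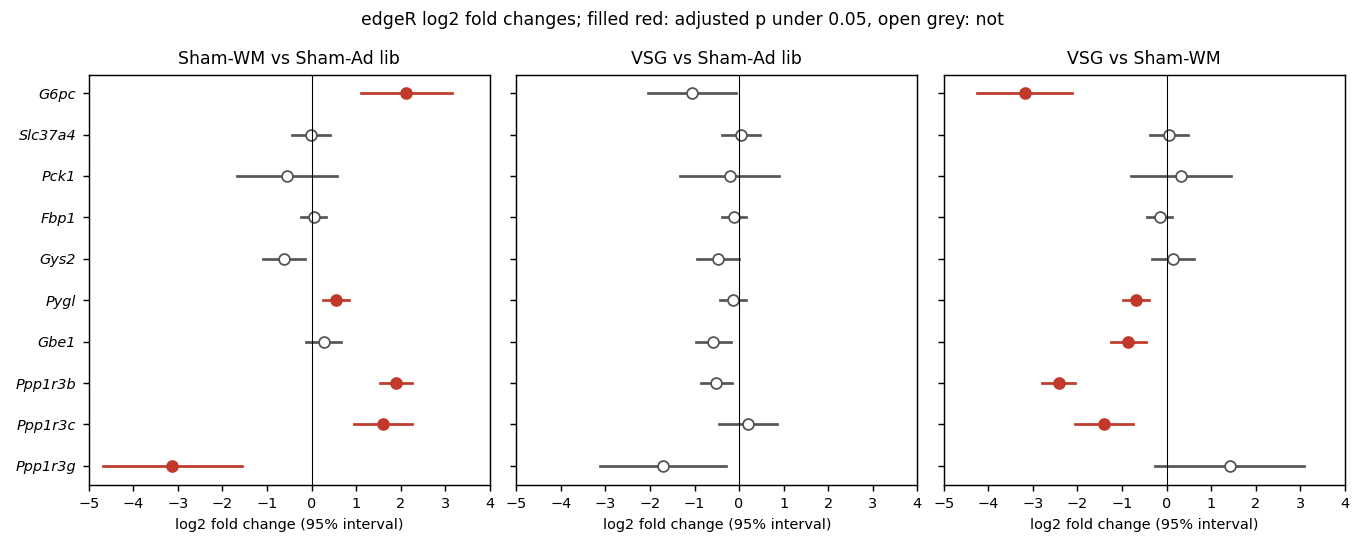
edgeR log2 fold changes of the 10 genes with 95% intervals (horizontal axis) in the 3 comparisons; filled red points passed an adjusted p of 0.05 over all 13054 genes and open grey points did not. Filled points stand at G6pc, Pygl, Ppp1r3b, Ppp1r3c and Ppp1r3g in the left panel, at none in the middle panel, and at G6pc, Pygl, Gbe1, Ppp1r3b and Ppp1r3c in the right panel.

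The calls between VSG and Sham-WM did not depend on which library was left out. In each of the 12 fits 5 of 10 were called, where 2196 to 3868 of all genes were. They did depend on the correction for unwanted variation: with 2 RUVs factors in edgeR only Ppp1r3b passed, and the adjusted p was 0.102 for G6pc, 0.209 for Pygl, 0.329 for Gbe1 and 0.207 for Ppp1r3c, with log2 fold changes of -2.45, -0.38, -0.36 and -0.91. Of all 13054 tested genes, 524 passed with RUVs factors. With RUVr factors 5 of 10 passed, where 5513 of all genes did. DESeq2 called 6 of 10 genes for Sham-WM against Sham-Ad lib, where it called 11.1% of all genes, and 5 of 10 for VSG against Sham-WM, where it called 31.3%. Groups did not overlap for 5 of 10 genes between Sham-WM and Sham-Ad lib, where this held for 17.6% of all genes; 4 were higher in Sham-WM (9.17% of all) and 1 lower (8.4%). Between VSG and Sham-WM 5 of 10 did not overlap, all lower in VSG, where 26.2% of all genes did not overlap, 14.3% higher and 11.9% lower. Between VSG and Sham-Ad lib this was 1 of 10, lower in VSG, and none higher, against 9.21% of all genes, 4.34% lower and 4.87% higher.

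Compared per length (CPM per kilobase of exon), the order of the 10 genes changed between groups. Length counted all annotated exons of a gene, 6895 bases for Pygl and 2657 for Gys2, and the order depends on it. In CPM the Sham-Ad lib mean was 464.3 for Pygl and 363.9 for Gys2. Per length, the Sham-Ad lib mean was highest for Fbp1 at 726.9 and Pck1 at 629.5, followed by Gys2 at 137. Pygl at 67.3, Slc37a4 at 63.4 and G6pc at 52.5 came next and overlapped one another, as did G6pc with Gbe1 at 35.4 and Gbe1 with Ppp1r3b at 30.0. Ppp1r3c at 11.7 and Ppp1r3g at 0.985 were lowest and overlapped no neighbour. In Sham-WM, G6pc at 229.1 and Ppp1r3b at 112.2 CPM per kilobase stood directly after Fbp1 and Pck1, ahead of Pygl at 98.1 and Gys2 at 89.0, although the neighbours from Pck1 to Gys2 overlapped. In VSG, Gys2 at 98.3 came directly after Fbp1 and Pck1, and G6pc at 25.2, Gbe1 at 23.7 and Ppp1r3b at 21.0 overlapped in turn.

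Among the 7 genes of the glycogen targeting family, transcripts per length were mainly Ppp1r3b and Ppp1r3c in every library. The summed level was 150.2 ± 18.2 CPM per kilobase in Sham-WM, 44.7 ± 6.69 in Sham-Ad lib and 36.6 ± 9.94 in VSG (SD, n = 4 each). It lay between 123.8 and 164.9 in Sham-WM and between 25.1 and 54.3 in the other libraries, with no overlap. As a share of that sum, which does not depend on library scaling, Ppp1r3b made up 74.95% ± 6.54 in Sham-WM, 66.9% ± 3.60 in Sham-Ad lib and 58.6% ± 6.18 in VSG, and the shares of Sham-WM and VSG did not overlap. Ppp1r3c made up 23.4% ± 6.56, 26.5% ± 2.28 and 35.4% ± 7.47 in the same order, with overlap among all groups. Ppp1r3g made up 2.26% ± 1.63 of the family in Sham-Ad lib and 0.0703% ± 0.0528 in Sham-WM, without overlap, and was 0.786% ± 0.495 in VSG. Ppp1r3e, the other member that passed the filter, did not pass the test in any comparison; Ppp1r3a, Ppp1r3d and Ppp1r3f were not tested, with at most 3, 22 and 6 counts in a library.

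**Figure D3:**
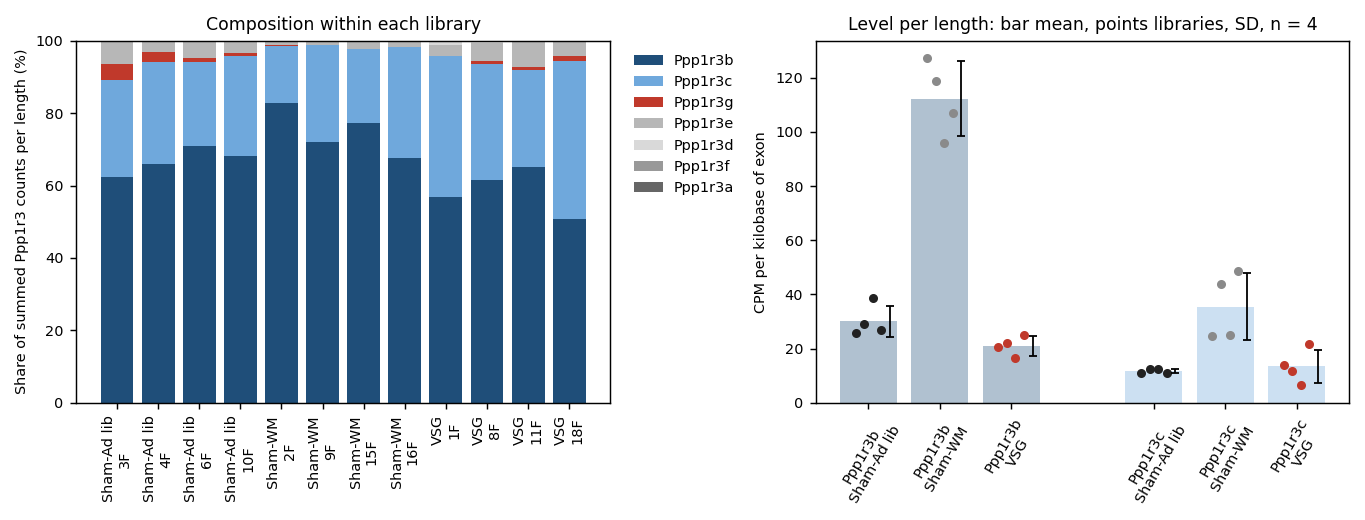
Left, share of each of the 7 targeting subunits in the summed counts per length (%) for every library; right, Ppp1r3b and Ppp1r3c in CPM per kilobase of exon, with bars for means, points for libraries and SD (n = 4). Dark blue Ppp1r3b takes 67.6 to 82.7% of Sham-WM libraries and 50.9 to 65.2% of VSG libraries, and red Ppp1r3g is visible mainly in Sham-Ad lib.

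Ratios of genes within a library, per length and free of scaling, restated the contrasts between steps, since they use the same counts. The log2 ratio of Gys2 to Pygl, synthase over phosphorylase, was 1.01 ± 0.13 in Sham-Ad lib and -0.15 ± 0.10 in Sham-WM (SD, n = 4 each). The 4 Sham-Ad lib values, from 0.82 to 1.10, did not overlap the Sham-WM values, from -0.28 to -0.03. VSG had 0.63 ± 0.49 and ranged from 0.024, in 1F, to 1.20, above Sham-WM in every library and overlapping Sham-Ad lib. In counts not divided by length, Pygl exceeded Gys2 in every library. The sign of this ratio thus depends on the division, and differences between groups do not. The log2 ratio of G6pc to its partner Slc37a4 was 1.67 ± 0.97 in Sham-WM, -0.27 ± 0.36 in Sham-Ad lib and -1.57 ± 1.03 in VSG, so that G6pc exceeded Slc37a4 in all 4 Sham-WM libraries and was below it in all 4 VSG libraries. The log2 ratio of Pck1 to Fbp1 was -1.05 ± 1.23, -0.36 ± 0.86 and -0.48 ± 0.91 in the same order and overlapped among all groups. These ratios were described without a test.

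**Figure D4:**
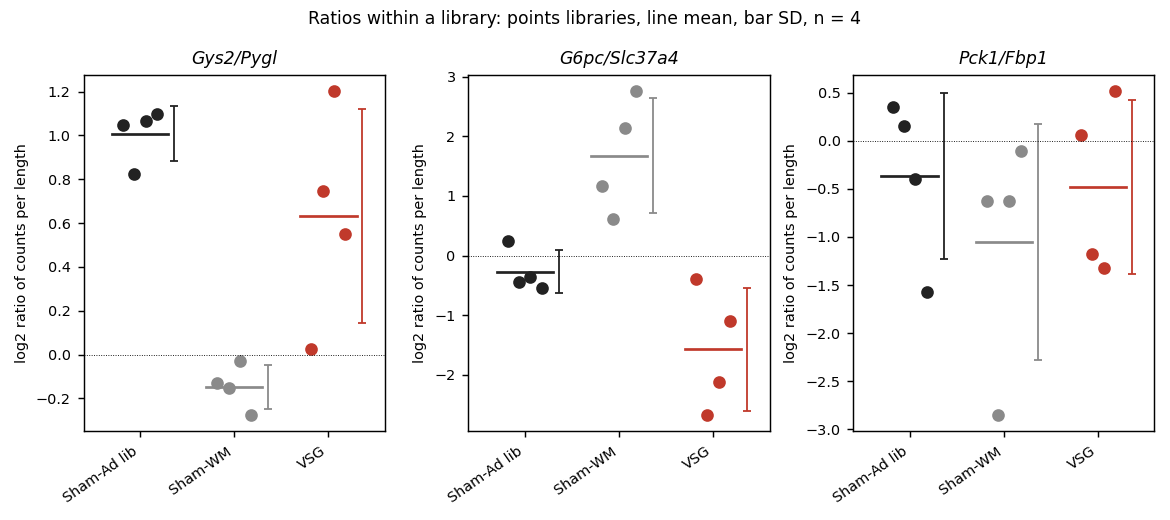
log2 ratios of counts per length within each library (points) for Gys2 to Pygl, G6pc to Slc37a4 and Pck1 to Fbp1, with the group mean as a line and SD as a bar (n = 4). Sham-WM lies below the other groups for Gys2 to Pygl (highest -0.03) and above them for G6pc to Slc37a4 (lowest 0.616), and the groups overlap for Pck1 to Fbp1.

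Of 64 other genes of gluconeogenesis, glycogen and their control, 58 were tested. For Sham-WM against Sham-Ad lib 2 rose and 2 fell, for VSG against Sham-Ad lib 0 passed in edgeR, and for VSG against Sham-WM 6 were higher and 7 lower in VSG. These counts stand beside shares of 6.99%, 0.751% and 26.9% of all tested genes. Of the genes named below, DESeq2 added Gyg for VSG against Sham-Ad lib (adjusted p = 0.0379), where it called 9.21% of all genes. For Sham-WM against Sham-Ad lib DESeq2 added Pgk1 (adjusted p = 0.0188) and Ppp1cc (0.0184), where it called 11.1%.

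Among 11 other glycogen enzymes tested, Stbd1, which tethers glycogen to membranes, fell in Sham-WM against Sham-Ad lib (log2 fold change -0.72, adjusted p = 0.0371, edgeR), a call lost without any 1 of the 8 libraries compared (adjusted p = 0.0537 to 0.102). Stbd1 was higher in VSG than in Sham-WM (0.71, adjusted p = 0.0169), except without 1F (0.054). Gyg, glycogenin, on which a glycogen particle starts, was higher in VSG than in Sham-WM (1.11, adjusted p = 0.00283) in all 12 fits without 1 library. For VSG against Sham-Ad lib, Gyg did not pass in edgeR (adjusted p = 0.0855). It passed there in 1 of the 12 fits, that without 18F (adjusted p = 0.0395).

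The 6 tested genes of the reversible steps shared with glycolysis had a median log2 fold change of 0.33 for Sham-WM against Sham-Ad lib, and 2 of them rose. Eno1, enolase, was 635.9 ± 38.0 CPM in Sham-WM, 402.6 ± 66.0 in Sham-Ad lib and 351.6 ± 31.6 in VSG, with a log2 fold change of 0.66 in Sham-WM (adjusted p = 0.00922, edgeR). Gpi1, glucose-6-phosphate isomerase, rose by 0.73 on the same scale (adjusted p = 0.00967), and both calls held in all 12 fits. In VSG against Sham-WM, 3 of the 6 were lower: Eno1 (-0.85, adjusted p = 0.00112), Pgk1 (-0.50, adjusted p = 0.011) and Gpi1 (-0.45, adjusted p = 0.0339). Eno1 and Pgk1 kept this call in all 12 fits, and Gpi1 lost it without 15F, 8F or 18F (adjusted p = 0.056 to 0.102).

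Of 15 other gluconeogenic genes, 0 passed in edgeR against Sham-Ad lib in either treatment. Between VSG and Sham-WM, Pck2, the mitochondrial carboxykinase, was higher in VSG (log2 fold change 0.82, adjusted p = 0.0187, edgeR), as was G6pc3, the widely expressed phosphatase paralogue (0.61, adjusted p = 0.0342). Gpd1, which links glycerol to the pathway, was lower (-0.65, adjusted p = 0.0298). Pck2 lost its call without 15F, 16F or 8F (adjusted p = 0.0537 to 0.0604), Gpd1 without 15F, 16F, 8F or 11F (0.0636 to 0.0963), and G6pc3 without 2F, 15F, 16F, 1F or 11F (0.0683 to 0.0921). G6pc3, at 4.33 to 6.64 CPM by group, was far below G6pc in CPM, as was Pck2, at 3.70 to 6.55 CPM, below Pck1.

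Glycogen kinases and phosphatase catalytic subunits (9 tested) moved by less than 1 on the log2 scale. Phka2, the liver regulatory subunit of phosphorylase kinase, fell in Sham-WM from 30.5 ± 2.86 to 21.1 ± 0.914 CPM (log2 fold change -0.53, adjusted p = 0.0207, edgeR), and lost the call without 3F, 6F, 2F, 15F or 16F (adjusted p = 0.0539 to 0.0712). In VSG against Sham-WM, Ppp1cc, a catalytic subunit of protein phosphatase 1, was higher (0.61, adjusted p = 0.00271) in all 12 fits. Phkg2, the catalytic subunit of phosphorylase kinase in liver, was higher (0.40, adjusted p = 0.035) but not without 9F, 15F, 16F, 8F or 11F (0.0661 to 0.104). Phka1, the muscle form of the regulatory subunit, was lower (-0.50, adjusted p = 0.0384) but not without 2F, 15F, 16F, 1F or 18F (0.0542 to 0.121). Gsk3b, a kinase that inactivates glycogen synthase, was lower (-0.37, adjusted p = 0.0282) but not without 9F, 15F, 16F, 1F or 11F (0.0524 to 0.0812).

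Of 16 transcription regulators of the pathway, 0 passed in edgeR against Sham-Ad lib in either treatment, and 1 passed between VSG and Sham-WM. This was Creb1, the factor that binds the cyclic AMP response element, at 19.4 ± 2.39 CPM in Sham-WM, 16.2 ± 1.43 in Sham-Ad lib and 13.9 ± 2.29 in VSG (log2 fold change -0.47, adjusted p = 0.0235), and not without 15F (0.0614) or 16F (0.0712). With RUVs factors in edgeR, 0 of the 13 calls between VSG and Sham-WM in these lists were kept. Phka2, not among the 13, passed there with these factors (log2 fold change 0.655, adjusted p = 0.0162, edgeR).

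**Figure D5:**
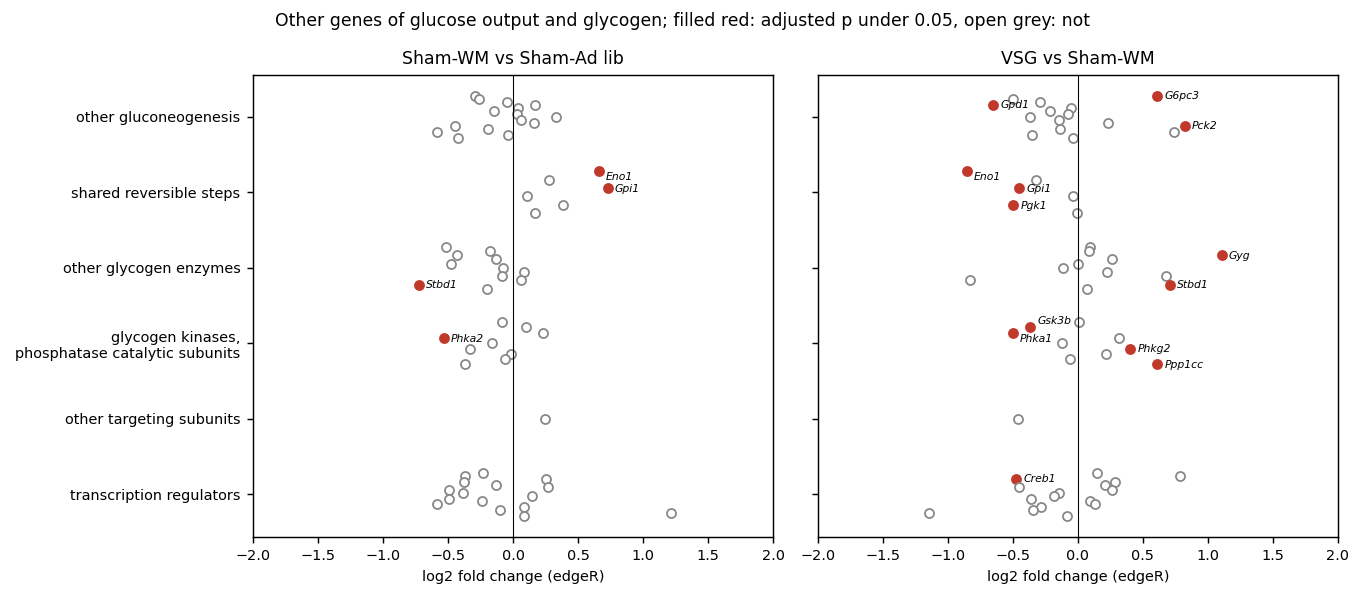
edgeR log2 fold changes of the 58 other tested genes by list, for Sham-WM against Sham-Ad lib (left) and VSG against Sham-WM (right); filled red points, which are named, passed an adjusted p of 0.05 and open grey points did not. Gpi1 (0.73) and Eno1 (0.66) are the named genes right of 0 in the left panel, and Gyg (1.11) stands farthest right in the right panel.

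Over the 12 libraries, the genes most like G6pc in log2 CPM were Homer1 (Pearson r = 0.965), Adgra3 (0.961), Magt1 (0.948), Kpna1 (0.944) and Tubg1 (0.935). For Gys2 they were Rab43 (0.922), Per3 (0.914), Cdk18 (0.905), Jph1 (0.905) and Dym (0.90). Those nearest to Ppp1r3c were Raver1 (0.973), Zfp518b (0.948), Clpx (0.94), Hnrnpab (0.935) and Slc45a3 (0.934). Among the 10 genes themselves, Pygl and Ppp1r3b were most alike (r = 0.918), and G6pc had r = 0.095 with Pck1 and 0.019 with Slc37a4. These values describe 12 libraries that fall into 3 groups and share the differences between them.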

How the data were processed

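Poly(A) RNA was prepared as directional libraries. Alignment to mm10 was by TopHat2 2.1.1 and counting on genes by featureCounts, and the authors deposited whole-number counts, neither normalized nor batch-corrected. The annotation release and the use of strand were not given in the sources used here. Symbols, positions and exon lengths came from GENCODE M21 (849 of 46078 genes unmatched). Genes were kept by filterByExpr (minimum count 10, minimum total 15), which left 13054 genes and at least 99.88% of each library's counts. Group means were fitted to all 12 libraries in R 4.3.3 with edgeR 4.0.16 (TMM factors 0.879 to 1.04, quasi-likelihood test), Benjamini-Hochberg adjusted over all genes and called at 0.05. CPM are TMM-scaled means with the SD of 4 mice, and log2 CPM used a prior count of 2. Depth of 15122520 to 19384076 counts covers counting error only, without molecular identifiers; 3 counts were taken as the floor.

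Alternatives were DESeq2 1.42.0, its size factors or upper quartile factors in edgeR, no filter, at least 10 counts in every library, only the compared groups, the second label field, RUVs or RUVr factors (k = 2, written out from their definitions because RUVSeq was not installed), and leaving out each library. The edgeR, DESeq2, RUVs and RUVr fits were run on simulated counts. These counts held no unwanted variation, so they could not test its removal. The genes, lists, motifs and tests were chosen with earlier results of these data known, and 3 genes of the lists are not reported here. The 10 genes are given in full; of each other list, up to 6 genes past the threshold with the largest fold changes are named, and for G6pc, Gys2 and Ppp1r3c the 5 genes with the highest Pearson correlation.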

Additional observations from a re-analysis of the deposited data

Results flagged for a closer look

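In VSG, library 18F stood apart from the other 3 libraries for 2 of the 10 genes: Pygl at 513.1 CPM against 388.8 to 395.1, a gap of 0.95 of the group's range, and Gbe1 at 179.1 CPM against 103.3 to 115.7, a gap of 0.837 of the range. Both exceed Dixon's 95% critical value for 4 samples. In all, 39 groups of 4 values were screened, and chance flags about 1 in 20 groups. Without 18F both genes remained lower in VSG than in Sham-WM at an adjusted p under 0.05 (edgeR). The same library had the lowest sums of neutrophil (21.3 CPM) and Kupffer cell markers (389 CPM) and the highest hepatocyte marker sum (127900 CPM) of the VSG group; the cause was not tested.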

How the results depend on the processing

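All 30 results of the 10 genes kept their direction and their side of the threshold with DESeq2's size factors and with upper quartile factors in edgeR, which moved the median of all genes by at most 0.036 on the log2 scale. No paired analysis was possible because the animal numbers of the groups are all different.

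For VSG against Sham-Ad lib, genes called went from 98 to 1202 with DESeq2, 628 with no filter, 0 with at least 10 counts in every library, 0 with only the compared groups, 8 with RUVs and 3034 with RUVr factors, and of the 10 genes 2 were called with DESeq2 and 3 with RUVr; leaving out 1 library gave 0 to 1089 genes and 0 to 2 of the 10. For Sham-WM against Sham-Ad lib, 912 became 1445 with DESeq2, 1399 with only the compared groups, 1724 with RUVs and 2188 with RUVr; leaving out 1 library gave 424 to 1311 genes and 2 to 6 of the 10. For VSG against Sham-WM, 3509 became 524 with RUVs, where 1 of the 10 passed, and 5513 with RUVr; leaving out 1 library gave 2196 to 3868 genes. The causes were not tested.

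Grouped by the second label field, 0 genes, and 0 of the 10, passed in any comparison. Log2 fold changes of called genes that reversed there for Sham-WM against Sham-Ad lib were G6pc -1.89, Pygl -0.16, Ppp1r3b -0.24, Ppp1r3c -0.18, Ppp1r3g 1.99, Eno1 -0.066, Gpi1 -0.40, Stbd1 0.011 and Phka2 0.21, and for VSG against Sham-WM G6pc 0.58, Pygl 0.051, Pck2 -0.067, Gpd1 0.072, Gpi1 0.16, Ppp1cc -0.0087 and Phkg2 -0.054. Of values of the 10 genes that were not called, the sign changed for VSG against Sham-Ad lib in Slc37a4 (to -0.14), Pck1 (0.76), Gbe1 (0.075), Ppp1r3c (-0.36) and Ppp1r3g (2.12), for Sham-WM against Sham-Ad lib in Pck1 (0.225) and for VSG against Sham-WM in Gys2 (-0.16).

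Without division by length, the Ppp1r3b share was 87.1% in Sham-WM, 82.2% in Sham-Ad lib and 76.3% in VSG, and the Ppp1r3c share 12.1%, 14.3% and 20.4%. With at least 10 counts in every library Ppp1r3g was not tested. With 4 mice per group, Ppp1r3g and Pck1 had the widest intervals of the 10. Spread between mice was not separated from counting error.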
